A study of Mus musculus with 4 samples.

Results

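The cells described here are aortic endothelial cells (EC) of the mouse in which mRNA of Cd36 or Fabp4 was counted. A well of a sorted plate was kept as a cell when it held at least 1000 unique molecular identifiers (UMIs, the tags that count single mRNA molecules) from nuclear genes and at most 25% of its UMIs on mitochondrial genes. A member was a cell with at least 2 UMIs of Cd36 and Fabp4 together and at least 1 UMI of Pecam1, the gene of the endothelial surface protein CD31. Of 432 cells with a Pecam1 UMI, 65 (15.05%) were members, and the remaining 367 are called the other cells. The 30 members with 10 or more Cd36 and Fabp4 UMIs differed from the other cells in 139 of 4789 genes tested (2.9%), 67 of them higher (1.4%) and 72 lower (1.5%). All 72 lower genes, but only 37 of the 67 higher ones, would have passed the filter on low counts in the other cells alone. The other higher genes were tested only through their counts in the strongest members. Emcn, Plvap and Eng were among the 37 that were higher, and Cytl1, Klk10 and Gja5 among those that were lower. The 35 members with 2 to 9 UMIs had no gene that passed the test.

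Single-cell RNA sequencing was performed by SORT-seq, in which sorted cells are placed singly in the 384 wells of a plate and the 3′ ends of their mRNA are read. There were 4 mice with 1 plate each, 2 EC-KO (Epas1fl/fl, Cdh5Cre/+) and 2 EC-WT (Epas1fl/fl, Cdh5+/+, littermates without Cre). The design asks what loss of Epas1, the gene of the oxygen-sensitive transcription factor HIF-2α, does to arterial endothelium. Both groups carried the floxed Epas1 alleles on a C57BL/6 background and received tamoxifen by intraperitoneal injection at 6 weeks of age, in 5 daily doses of 2 mg per mouse, and aortas were taken 2 weeks later from mice matched for age and sex. Cre activity in EC-KO mice came from an inducible transgene driven by the Cdh5 promoter, which is active in endothelium of all vessels. Whole aortas were digested for 10 min so that the adventitia could be taken off, digested further, and sorted for CD31+ CD45- TO-PRO-3- cells, which are live cells of endothelial and not of leukocyte type.

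CD36 is a scavenger receptor and long-chain fatty acid translocase of the plasma membrane, and FABP4 is a small carrier protein that binds fatty acids in the cytoplasm. In the body both are typical of microvascular endothelium of heart, muscle and adipose tissue, where lipoprotein lipase, held on the capillary wall by GPIHBP1, frees fatty acids from triglyceride and the endothelium passes them on. Endothelium of large arteries, capillaries and veins differs in its transcription factors and surface proteins, with COUP-TFII, encoded by Nr2f2, being the classical factor of venous identity. The aortic wall contains such small vessels in the form of vasa vasorum. These are background statements and not results of the present data.

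Fatty acid-sensing nuclear receptors of the PPAR family, which regulate Cd36 and Fabp4 in several tissues, bind elements built from copies of the 6 letters AGGTCA. The 250 bases before a RefSeq start of Cd36 were therefore read (build GRCm38.p6, chr5:17835897-17836146, minus strand). The window lies inside the annotated span of Cd36 (chromosome 5, 17781690 to 17888801) and overlapped no annotated exon. It is shown because Cd36 is 1 of the 2 genes that define the cells, and the capitals mark the single match to AGGTCA or its reverse complement TGACCT.
Cd36, 250 bases before the start: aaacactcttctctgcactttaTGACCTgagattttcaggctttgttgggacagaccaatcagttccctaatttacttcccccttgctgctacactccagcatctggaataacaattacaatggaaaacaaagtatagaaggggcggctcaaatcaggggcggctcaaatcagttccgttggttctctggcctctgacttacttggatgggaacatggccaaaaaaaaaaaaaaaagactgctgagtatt
The match began at position -228, counted from the start. Such a match was present in 14.02% of all 32851 windows of this length before RefSeq starts. Of genes with an entry, 8 of 47 (17.02%) that were higher in the 30 strongest members held it, 5 of 49 (10.2%) that were lower and 442 of 3658 tested (12.1%). A match of 6 letters is a description of the sequence and not a binding site.

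The 4 plates gave 441 cells, 157 and 98 from the mice labelled EC-KO and 114 and 72 from the mice labelled EC-WT. The paper's methods give more kept cells to EC-WT than to EC-KO, the opposite of these labels, so the genotypes below are those of the labels, and every genotype difference would change sign if the labels were exchanged. The members held 599902 UMIs in all and the other cells 2530777, and a single member held between 1304 and 47621. All 4 plates used the same 384 well barcodes, so barcodes do not separate the mice. No doublet caller was run. In EC-KO mouse 2, a single cell of 47621 UMIs contributed 56.6% of all UMIs of the 5 strongest members, and 2.17% of its UMIs came from smooth muscle genes, with 461 UMIs of Acta2. Where a level of that mouse is given below, this cell is included unless stated otherwise.

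The values that chose the cells are given first, as a description. Every one of the 65 members had Fabp4 UMIs, and 24 had Cd36 UMIs as well, so no member was chosen through Cd36 alone. The 30 members with 10 or more UMIs had sums from 11 to 122 with a median of 29.5, and 23 of them had a Cd36 UMI. The 35 members with 2 to 9 UMIs had a median of 3, and 1 of them had a Cd36 UMI. The 30 strongest members held 244 Cd36 UMIs, which were 95.7% of all those in Pecam1-positive cells, and 955 Fabp4 UMIs, which were 84.3%. Pooled over mice, these 30 cells had a Cd36 level of 969 (CPM, the count of a gene for every 1000000 nuclear UMIs of the same cells), and the other cells had 3.95. For Fabp4 the pooled levels were 3794 and 18.6 CPM.

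**Figure D1:**
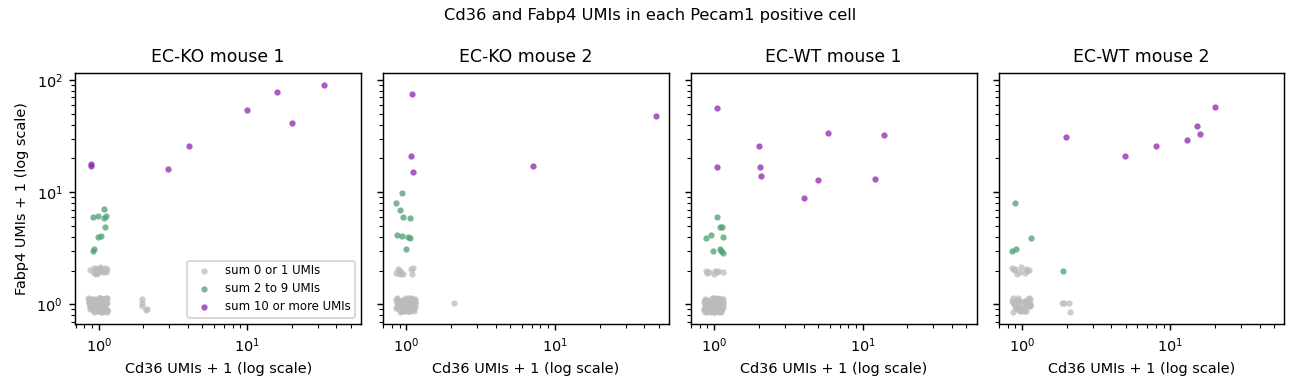
Cd36 and Fabp4 UMIs of single Pecam1-positive cells in each of the 4 mice, on log axes, with the boundary sums marked. All 65 members have Fabp4 UMIs, Cd36 is present in 23 of the 30 cells with sums of 10 or more and in 1 of the 35 with sums of 2 to 9, and cells of the first kind occur in every mouse.

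The threshold of 2 cut through a continuous range. Just outside it lay 57 cells with 1 UMI, 47 by Fabp4 and 10 by Cd36, and just inside it lay 10 cells with 2 UMIs and 10 with 3. The 57 cells had a median of 7368 UMIs in total and the 10 cells with 2 had 10687. Lrg1 was present in 6 of the 57 and in 1 of the 10. Free RNA from broken cells can place single Fabp4 molecules in any well. In 21 cells rich in smooth muscle genes (at least 1% of UMIs), a cell type that should lack Fabp4 although most of them were Pecam1-positive (3 members and 12 other cells, with 910 CPM of Pecam1 pooled over the 21), 7 (33.3%) had a Fabp4 UMI at a median depth of 5263 UMIs, against 106 of 420 (25.2%) of all remaining cells at 5618. Sums of 2 to 9 occurred in 3 of these 21 (14.3%) and in 33 of the 420 (7.86%). At these counts the share with 2 to 9 UMIs was no higher than in a cell type that should lack the gene, although 2 of the 3 were themselves members. Whether UMIs of the weaker members came from free RNA was not tested. Sums of 10 or more occurred in 1 of 21 (4.76%) and in 29 of 420 (6.90%), and the single smooth muscle-rich cell was the deep cell of EC-KO mouse 2 described above.

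Lrg1, Nr2f2 and Aqp1 were given with the choice of the cells as their leading genes, so they are no independent support. Lrg1 encodes a secreted leucine-rich glycoprotein of small vessels and veins, and Aqp1 a water channel of many endothelia. Lrg1 was detected in 19 of the 30 strongest members, 2 of the 35 weaker ones and 23 of the 367 other cells. The corresponding counts were 20, 2 and 21 for Nr2f2 and 25, 18 and 132 for Aqp1. In the weaker members the share of cells with Lrg1 (5.71%) or Nr2f2 (5.71%) was close to that of the other cells (6.27% and 5.72%), whereas Aqp1 was found in 51.4% of them and 36.0% of the other cells. To compare detection at equal depth, each cell was thinned to 1000 UMIs. Lrg1 was then present in 12 of the 30 strongest members (40.0%) and in 4 of the 310 cells without any Cd36 or Fabp4 UMI (1.29%). Aqp1 was then present in 20% of cells with sums of 2 to 3 and in 20% with sums of 4 to 9. Cells with a sum of 0 had it in 12.9% and those with a sum of 1 in 26.3%. Before thinning, the weaker members were deeper than the other cells, with a median of 7717 against 5385 UMIs.

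**Figure D2:**
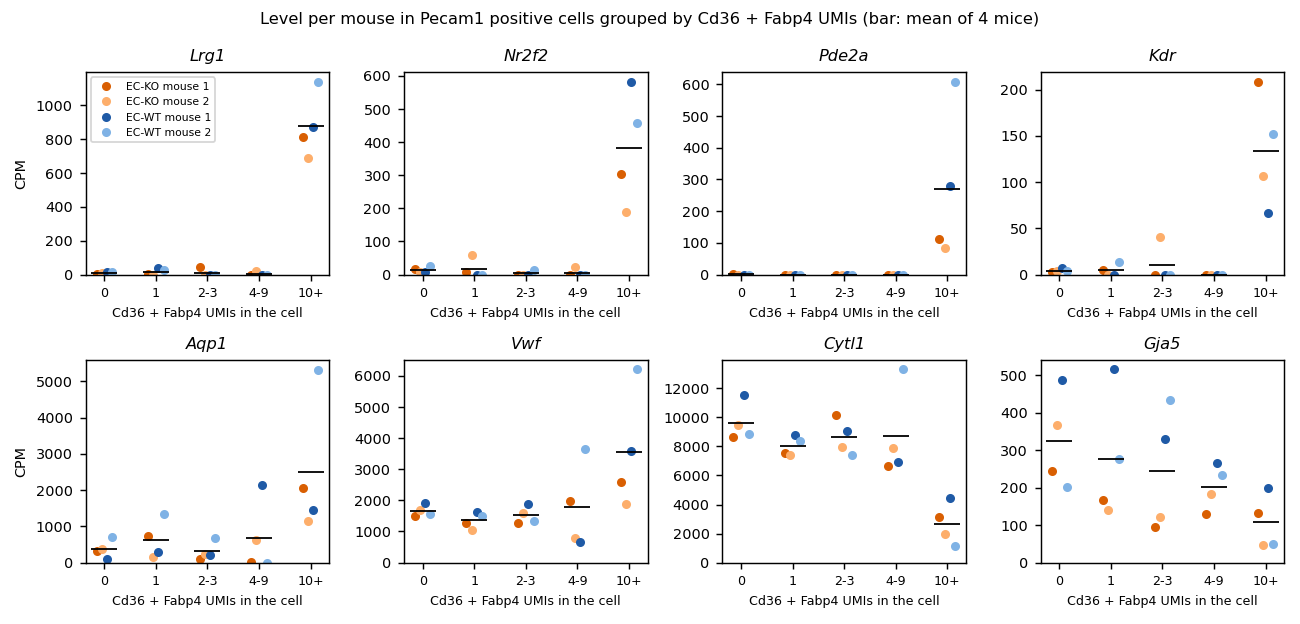
Levels (CPM) of selected genes per mouse in Pecam1-positive cells grouped by their Cd36 and Fabp4 sum (0, 1, 2 to 3, 4 to 9, 10 or more), with bars at the mean of the 4 mice. Lrg1, Nr2f2 and Pde2a are highest in the last group. The mean of Aqp1 is 624 CPM in cells with a sum of 1 against 374 at a sum of 0, and 2493 in the last group.

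The median UMIs per cell were 6216.5 in members and 6301 in other cells of EC-KO mouse 1, 9573 and 7062 in EC-KO mouse 2, 4162.5 and 3723 in EC-WT mouse 1 and 7962 and 5450 in EC-WT mouse 2. Members were deeper in 3 of 4 mice (mean difference 1344.5 UMIs, 2-sided exact sign-flip permutation test over mice, p = 0.25, where 0.125 is the smallest possible). The median number of genes was higher in members in 4 of 4 mice, p = 0.125 by the same exact test. The mitochondrial share did not differ in a common direction, with medians from 6.51% to 9.69% in members and 6.35% to 9.61% in other cells (exact test, p = 1).

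Gene expression was compared on UMIs summed per mouse over members and over other cells, with the mouse as a block and without Cd36, Fabp4 and Pecam1. Of 5320 genes tested, 37 differed (0.695%), 28 being higher (0.526%) and 9 lower (0.169%) in members, at an adjusted p under 0.05 (edgeR quasi-likelihood test, Benjamini-Hochberg). All 9 lower genes, but only 18 of the 28 higher ones, would have passed the filter on low counts in the other cells alone. The remaining higher genes, Fabp5 among them, were tested only through their counts in members. In 27 of the 28 and in 9 of the 9 the direction was the same in 4 of 4 mice. An unadjusted p under 0.05 was reached by 483 genes (9.08%). Replicates were single mice, and p-values measure the spread between these 4 plates.

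The largest rises in members were those of Pde2a, Lrg1, Apold1, Fam174b, Lbp, Robo4 and Nr2f2. All of these genes were tested only through their counts in members, so their p-values are no independent support. Pde2a, a phosphodiesterase that breaks down cyclic nucleotides, had 44.1, 39.6, 129 and 194 CPM in the members of EC-KO mouse 1, EC-KO mouse 2, EC-WT mouse 1 and EC-WT mouse 2 (the order used throughout). In the other cells it was counted once in all, so the groups did not overlap. All 58 of its member UMIs came from 19 of the 30 strongest members. Nr2f2 had 118, 96.1, 269 and 154 CPM in members against 13.98, 14.8, 8.24 and 18.1 in other cells. Its log2 fold change was 3.43 ± 0.37 (SE, edgeR adjusted p = 7.1e-05). Robo4, a roundabout receptor that stabilises endothelial junctions, had 36.8, 33.9, 73.5 and 48.5 CPM against 0, 4.45, 8.24 and 4.53 (3.55 ± 0.61, edgeR adjusted p = 0.0050).

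Other rises among the largest were of genes with less settled roles in endothelium. Of those given here, Apold1, Fam174b and Gpm6a were tested only through their counts in members. Tmem88 would have passed the filter in the other cells alone. Apold1, an early response gene of endothelium, had 118, 141, 42.9 and 48.5 CPM in members against 12.9, 0, 0 and 9.07 in other cells (log2 fold change 4.06 ± 0.62, edgeR adjusted p = 0.0018). Of its 54 member UMIs 53 came from 11 of the strongest members. Fam174b, a membrane protein gene, had 80.9, 102, 153 and 137 CPM against 13.98, 7.42, 0 and 9.07 and was also present in 6 of the 35 weaker members. Tmem88, a membrane protein gene linked to Wnt signalling, had 162, 96.1, 331 and 267 CPM against 49.5, 44.5, 63.8 and 79.4 (1.81 ± 0.26). Gpm6a, a membrane glycoprotein gene, had 44.1, 33.9, 42.9 and 40.4 CPM against 6.45, 5.93, 12.4 and 4.53, and all of its 24 member UMIs lay in the strongest members. In Apold1, Fam174b, Tmem88 and Gpm6a the members of every mouse lay above all other-cell values.

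Genes that fell in members were Aldh3a1, Vipr1, Meg3, Klk10, Spon1, Vcam1, Cd24a, Ptprj and Cytl1. Vcam1, an adhesion molecule for leukocytes, had 338, 424, 380 and 412 CPM in members against 650, 937, 957 and 617 in other cells, without overlap (log2 fold change -0.97 ± 0.16, edgeR adjusted p = 0.0044). Spon1, which encodes the matrix protein spondin, had 611, 475, 337 and 356 CPM against 811, 937, 912 and 891. Cytl1, a secreted cytokine-like protein and one of the most abundant mRNAs of these aortic cells, had 5834, 5082, 6754 and 6011 CPM against 8378, 9159, 11269 and 8699 (-0.62 ± 0.12, edgeR adjusted p = 0.011). Several of these calls rested on single mice. Without EC-WT mouse 1, Vcam1 (-0.86, adjusted p = 0.063), Spon1 (-0.85, 0.070) and Klk10 (-0.81, 0.066) no longer passed, nor did Lbp (3.13, 0.066) and Robo4 (3.79, 0.082) among the rises, and 17 genes were higher and 3 lower in all. Without EC-KO mouse 2, 34 were higher and 4 lower.

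Meg3, a long noncoding RNA, had 169, 254, 129 and 275 CPM in members against 386, 644, 550 and 336 in other cells, and 75.8, 23.8, 106 and 76.1 in the strongest members (-2.84 ± 0.39, edgeR adjusted p = 9.3e-05). Ptprj, a receptor tyrosine phosphatase, had 294, 356, 380 and 372 CPM in members against 569, 700, 850 and 426, and 228, 178, 172 and 25.4 in the strongest. For Meg3 and Ptprj no member level reached any other-cell level. Aldh3a1, an aldehyde dehydrogenase, and Vipr1, a receptor for vasoactive intestinal peptide, were rare, with 18 and 14 UMIs in members, and their calls were lost whichever mouse was left out.

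The same fit was repeated for the 30 strongest members and for the 35 weaker members, each against the same 367 other cells, so that both comparisons share their controls. In the strongest members 67 genes were higher (1.4%) and 72 lower (1.5%) of 4789 tested, although they were fewer cells. The 30 cells are part of the 65 and were set against the same controls, so 32 of the 37 genes called in all members being called here in the same direction is no independent support. In 63 of the 67 and 72 of the 72 the direction was the same in 4 of 4 mice. In the weaker members 0 of 4599 genes were higher and 0 lower (0%), with 159 (3.46%) at an unadjusted p under 0.05 (edgeR; no other tool was run on this comparison). The median log2 fold change over all genes tested was -0.05 for the strongest and 0.00 for the weaker members. Without EC-KO mouse 2, and so without its deep cell, the strongest members had 97 genes higher and 80 lower, and without EC-WT mouse 2 they had 46 higher and 28 lower. The boundary of 10 was chosen with earlier results of these data known.

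**Figure D3:**
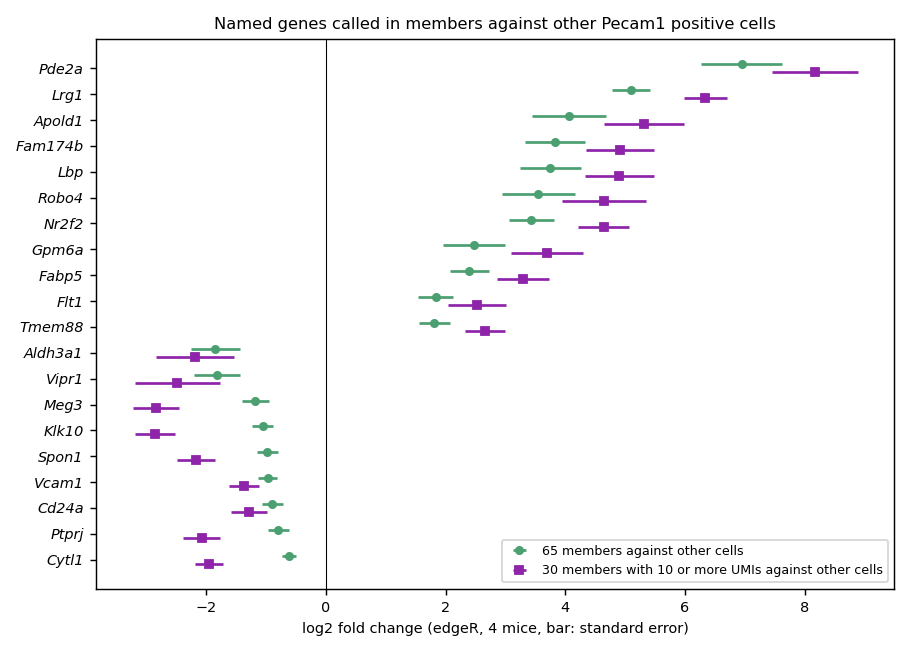
Log2 fold changes of named genes against the other Pecam1-positive cells, with standard errors from edgeR, for all 65 members and for the 30 with 10 or more Cd36 and Fabp4 UMIs. Nearly all values lie farther from 0 in the 30 strongest members, for example 5.10 and 6.34 for Lrg1 and -0.62 and -1.95 for Cytl1.

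Lrg1 had 815, 690, 874 and 1141 CPM in the strongest members and 3.23, 7.42, 16.5 and 20.4 in the other cells (log2 fold change 6.34 ± 0.36, edgeR adjusted p = 6.9e-10). Nr2f2 had 303, 190, 583 and 457 CPM against 13.98, 14.8, 8.24 and 18.1 (4.64 ± 0.43). Aqp1 had 2048, 1154, 1444 and 5326 CPM against 410, 335, 121 and 925 (2.52 ± 0.24). In each of these genes the lowest strong-member value lay above the highest value of the other cells. Lrg1 and Nr2f2, unlike Aqp1, were tested only through their counts in the strongest members.

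Transcripts found almost only in the strongest members are best given as counts. Pde2a had 58 UMIs in the 30 cells and 1 in the 367 other cells, a ratio of CPM of 583 (95% exact counting interval 101 to 23424). Meox2, a homeobox gene that drives fatty acid uptake genes in heart and muscle endothelium, had 49 and 1 UMIs, a ratio of 493 (84.4 to 19850). Htr2b, a serotonin receptor, had 33 and 2 UMIs (166, 42.4 to 1427). Tcf15, which encodes a transcription factor that pairs with MEOX2 in the same endothelia, had 23 UMIs in 11 strong members and 0 in the other cells, at least 77.1-fold higher when the other cells are set to the floor of 3 counts over the group. The intervals and the floor cover counting error only. Among the 35 weaker members, Meox2 was present in 3 cells and Tcf15 and Pde2a in 0.

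Further large rises in the strongest members were those of Clca1, C1qtnf9 and Slco2b1. Clca1, C1qtnf9 and Slco2b1 were tested only through their counts in these cells. Clca1 had 37.9, 71.4, 92.7 and 228 CPM against 2.15, 0, 4.12 and 0 in other cells, with 24 UMIs in 11 of the 30 cells. C1qtnf9, a secreted relative of complement C1q and adiponectin, had 246, 71.4, 39.7 and 888 CPM against 8.60, 2.97, 6.18 and 15.9 (log2 fold change 4.77 ± 0.55, edgeR adjusted p = 2.0e-05). Its 57 UMIs came from 12 of the 30 cells, and its level differed most between mice. Slco2b1, an organic anion transporter, had 114, 47.6, 79.5 and 178 CPM against 2.15, 1.48, 8.24 and 6.80. Clca1 and C1qtnf9 were at 0 in the 35 weaker members.

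The VEGF receptor genes were measured through a list of 9 genes. Of 6 tested in each comparison, 1 (Flt1) was higher in all members and 3 (Flt1, Kdr and Nrp2) were higher in the strongest, with Vegfa lower. The 2 sets of 6 were not the same, since Kdr and Nrp2 had enough counts for the test only in the comparison of the strongest members. They had them through their high counts in these cells, so the p-value of Kdr is no independent support. Over the 4 genes tested in both comparisons, 1 was higher in each, and the median log2 fold changes were 0.22 and 0.41. Kdr, the main signalling receptor for VEGF-A, had 209, 107, 66.2 and 152 CPM in the strongest members against 3.23, 2.97, 6.18 and 6.80 (4.76 ± 0.62, edgeR adjusted p = 6.6e-05). Nrp2, a co-receptor found on veins and lymphatics, had 133, 59.5, 305 and 457 CPM against 0, 0, 8.24 and 6.80. Flt1, the receptor that binds VEGF-A with little signalling, had 455, 285, 26.5 and 355 CPM against 40.9, 48.9, 41.2 and 36.3. It was higher in 3 of 4 mice and lower in EC-WT mouse 1. Vegfa, the ligand, had 19.0, 47.6, 66.2 and 25.4 CPM against 158, 251, 224 and 147 (-2.26, edgeR adjusted p = 0.0039).

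General endothelial markers remained present. Pecam1, which helped to choose the cells and was not tested, had 3091, 2462, 3869 and 2968 CPM in the strongest members. In cells without a Cd36 or Fabp4 UMI it had 4674, 6723, 6805 and 4949 CPM, so it was lower in the strongest members of every mouse. Of the 13 general markers tested in all members, 3 (Emcn, Flt1 and Robo4) were higher and none lower, with a median log2 fold change of 0.18. Of the 14 tested in the strongest members, 6 were higher (those 3, Eng, Kdr and Vwf; 5 with DESeq2, without Vwf). Robo4 in both comparisons, and Kdr in that of the strongest members, were tested only through their counts in members. Over the 13 genes tested in both comparisons the median was 0.38 in the strongest members. Emcn, a sialomucin of capillary and venous endothelium, had 986, 464, 530 and 913 CPM in the strongest members against 118, 135, 70.01 and 168 (2.54 ± 0.28, edgeR adjusted p = 9.0e-06). Vwf, the gene of von Willebrand factor, had 2579, 1867, 3591 and 6239 CPM against 1434, 1583, 1882 and 1535 (1.01, edgeR adjusted p = 0.013). Eng, a TGF-β co-receptor of endothelium, had 777, 595, 821 and 862 CPM against 326, 326, 311 and 363. Vwf was higher in 4 of 4 mice, but its lowest strong-member value, in EC-KO mouse 2, lay just under the highest value of the other cells. The deep cell of that mouse holds 8 of its 157 Vwf UMIs, and without this cell the level was 4087 CPM and the sets did not overlap. Emcn and Eng did not overlap.

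Among 17 capillary markers, only 4 were tested in all members and 6 in the strongest, because most were too rare. In all members 2 (Fabp5 and Plvap) were higher, and in the strongest 4 (Fabp5, Kdr, Meox2 and Plvap). Kdr and Meox2 were tested only in the comparison of the strongest members, through their high counts there. Over the 4 genes tested in both comparisons, 2 were higher in each, and the median log2 fold changes were 0.62 and 1.21. Of these 2, Fabp5 was also tested only through its counts in members. Plvap would have passed the filter in the other cells alone. The summed level of the list was 6143, 3378, 4677 and 4591 CPM in the strongest members and 1323, 2022, 1625 and 891 in the other cells. It was higher in 4 of 4 mice without overlap (exact sign-flip permutation test, p = 0.125, the smallest possible). Plvap, which builds the diaphragms of fenestrae and caveolae, gave the largest part, with 1915, 2771, 3259 and 2968 CPM against 1039, 1661, 1252 and 474 (1.39 ± 0.25, edgeR adjusted p = 0.0019). Rarer capillary genes were found in few cells. Gpihbp1 had 360, 0, 13.2 and 127 CPM, Rgcc 265, 0, 53.0 and 0 CPM, and Car4 was found in EC-KO mouse 1 only, with 4 UMIs. Cd300lg, a mucin-like endothelial receptor, had 607, 35.7, 79.5 and 178 CPM against 1.08, 0, 6.18 and 6.80.

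Of 16 venous markers in the files, 11 were tested. In all members 4 (Emcn, Lbp, Lrg1 and Nr2f2) were higher and Vcam1 was lower, with a median log2 fold change of 0.54. In the strongest members 6 (those 4, Nrp2 and Vwf) were higher and Selp and Vcam1 lower, and with DESeq2 5 were higher and 1 lower (Vwf and Selp lost). Nrp2 was tested only in the comparison of the strongest members, and Lrg1 and Nr2f2 were given with the choice of the cells. Over the 8 genes tested in both comparisons without Lrg1 and Nr2f2, 2 were higher and 1 lower in all members (median log2 fold change 0.20) and 3 were higher and 2 lower in the strongest (median 0.30). Among these higher genes, Lbp was tested in both comparisons only through its counts in members. Lbp, which encodes the lipopolysaccharide-binding protein, had 114, 59.5, 437 and 178 CPM against 5.38, 4.45, 6.18 and 4.53. Selp, the gene of P-selectin, which captures leukocytes, had 284, 83.3, 159 and 203 CPM against 393, 403, 323 and 510 (-1.22). Selp and Vcam1 are adhesion molecules that inflamed endothelium of other vessels also makes. The venous receptor gene Aplnr was not tested, with 17 UMIs in 7 strong members and 1 in the other cells.

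Of 21 arterial markers, 17 were tested in all members and 0 were higher or lower (edgeR), with 5 at an unadjusted p under 0.05, 0 by DESeq2 and a median log2 fold change of -0.20. In the strongest members 3 of 16 (Bmx, Fbln2 and Gja5) were lower and 0 higher, with 7 at an unadjusted p under 0.05 and a median of -0.40. Fbln2 was not called by DESeq2, and 13 of the 16 were not called by edgeR. Gja5, the gap junction protein connexin 40 of arterial endothelium, had 133, 47.6, 199 and 50.7 CPM in the strongest members against 226, 334, 490 and 227 (-1.63). Bmx, a tyrosine kinase of arterial endothelium, had 94.8, 107, 185 and 127 CPM against 412, 371, 381 and 465 (-1.64). Fbln2, a matrix glycoprotein, had 360, 404, 1179 and 1091 CPM against 1402, 1627, 1703 and 1140 (-1.10). It was lower in 4 of 4 mice, and the EC-WT values of the strongest members came close to, or above, the lowest other-cell value. Mgp, the matrix Gla protein, had 3887, 20528, 4054 and 2689 CPM against 6210, 8216, 9294 and 5573. It was lower in 3 mice and higher in EC-KO mouse 2, where the deep cell holds 1526 of the 1726 Mgp UMIs. Without this cell the level was 5485 CPM, below all other-cell values.

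Genes for the uptake and handling of fatty acids other than Cd36 and Fabp4 were mostly too rare to test. Of 26 in the files, 9 were tested in all members and 7 in the strongest, and Fabp5 was the only one called in either. Fabp5 entered both tests only through its counts in members. The medians of 0.08 and 0.02 were close to the medians over all genes (0.00 and -0.05). The list summed to 8835, 5031, 6214 and 6214 CPM in the strongest members against 4743, 5881, 4507 and 7244, 2 mice being higher and 2 lower (p = 0.5, exact sign-flip test by permutation). Without the deep cell EC-KO mouse 2 had 8749 CPM, and 3 of 4 mice were higher. Fabp5, the epidermal fatty acid-binding protein, had 322, 262, 146 and 279 CPM in the strongest members against 36.6, 14.8, 30.9 and 20.4 (3.29). Mgll, monoacylglycerol lipase, had 1081, 262, 238 and 609 CPM against 161, 151, 299 and 156 (1.35, edgeR adjusted p = 0.063) and was not called. Among the untested genes, 4 are given that were picked after their values were seen. Lpl (lipoprotein lipase) had 16 UMIs in the strongest members and 5 in the other cells, Scarb1 (a lipoprotein receptor) 40 and 31, Lipe (hormone-sensitive lipase) 18 and 16, and Pparg 12 and 2. Of those not picked, Ppard, for example, had 1 UMI in the strongest members and 49 in the other cells. The 30 cells held 251726 UMIs against 2530777, so the 4 picked genes were at a higher CPM in the strongest members and Ppard at a lower one. Pparg came from 3 cells of the EC-KO mice. Of 18 genes of fatty acid oxidation, 15 were tested and 0 called in either set (edgeR), with 2 at an unadjusted p under 0.05 in each set and 0 by DESeq2. Their summed level was 1103 ± 55.5 CPM in the strongest members and 1059 ± 51.9 in the other cells (SD, n = 4 mice).

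Abundant genes of the other cells that were lower in the strongest members included Eln, Fn1, Cytl1, Ace and Klk10. Eln, the gene of elastin, had 1631, 2581, 2398 and 1750 CPM against 4335, 6369, 5728 and 4201 (-1.31). Fn1 (fibronectin) had 360, 1189, 623 and 178 CPM against 1322, 1394, 1417 and 1603 (-1.41). Neither gene overlapped between both sets of cells. Cytl1 had 3128, 1950, 4465 and 1116 CPM against 8378, 9159, 11269 and 8699 (-1.95). Ace, which encodes angiotensin-converting enzyme, had 607, 392, 662 and 583 CPM against 1149, 1439, 1472 and 1197 (-1.25). Klk10, a secreted kallikrein of aortic endothelium, had 228, 47.6, 199 and 50.7 CPM against 700, 917, 1412 and 560 (-2.85 ± 0.34, edgeR adjusted p = 2.0e-05). Slc4a4, a sodium bicarbonate cotransporter, had 0 UMIs in the 30 cells and 207 in the other cells, at least 6.86-fold lower at the floor of 3 counts over the group. In the weaker members Slc4a4 had 96.2, 75.4, 216 and 166 CPM against 67.8, 89.0, 92.7 and 88.4.

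The 6 endocardial and valvular genes summed to 3204, 2022, 4571 and 1217 CPM in the strongest members and to 5893, 5127, 6846 and 6165 CPM in all members, against 8457, 9236, 11357 and 8874 CPM in other cells. They were lower in 4 of 4 mice in both, with p = 0.125 in the exact sign-flip permutation test, and nearly all of this level was Cytl1, 1 of 2 genes tested and the one called. Of 10 flow-responsive genes, 9 were tested and 0 called in all or in the strongest members (edgeR), with 5 and 4 at an unadjusted p under 0.05 and 0 by DESeq2. Their median log2 fold changes were -0.38 and -0.60. The summed level of this list was lower in members in 4 of 4 mice, 5532, 3917, 4409 and 4096 CPM against 5678, 6884, 5185 and 6298 (exact sign-flip permutation test, p = 0.125). In the strongest members it was 7717, 2890, 3697 and 2917 CPM, higher than in the other cells in EC-KO mouse 1 and lower in 3 mice (exact sign-flip permutation test, p = 0.25). Of 11 tested hypoxia-inducible factors and targets, 0 were called in all members (edgeR; 2 at an unadjusted p under 0.05, 0 by DESeq2), and in the strongest Vegfa alone was. The list summed to 2863, 4032, 3909 and 3297 CPM in the strongest members against 4457, 4829, 5053 and 3795, lower in 4 of 4 mice with overlap between the sets (exact sign-flip permutation test, p = 0.125). For cyclic nucleotide and nitric oxide signalling 1 of 5 tested (Pde2a) was higher, and in the strongest members Pde3b was lower as well (-2.01, edgeR adjusted p = 0.046; not called by DESeq2). Of 16 immediate early and stress genes, which respond to tissue digestion, 0 were called in all members (4 at an unadjusted p under 0.05, 0 by DESeq2), and in the strongest Hspb1 was higher (0.89; not called by DESeq2).

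Markers of other cell types were followed for their whole lists. Of 9 smooth muscle genes tested 0 were called in members (edgeR and DESeq2, 0 at an unadjusted p under 0.05), and their summed level ranged from 502 to 6585 CPM in members and from 317 to 6845 in other cells. In the strongest members it was 1574, 12797, 238 and 685 CPM, the second value being that of the deep cell. With all smooth muscle-rich cells left out of both sets, the strongest members had 112 genes higher and 110 lower, so the calls were not fewer. That choice was made after the data were seen. Of 4 fibroblast genes tested 0 were called in members (edgeR and DESeq2, 0 at an unadjusted p under 0.05), with sums from 949 to 1826 CPM against 725 to 3444, and in the strongest Col1a2 was lower. Adipocyte markers, a concern because adipocytes are rich in Cd36 and Fabp4, were untested for lack of counts. Of 6 such genes with counts, 3 were at 0 in the strongest members, and their sum in these cells reached 39.7 CPM in EC-WT mouse 1 and 11.9 CPM in EC-KO mouse 2 and was 0 in the others. In all members the adipocyte sum was 7.36, 5.65, 18.4 and 32.3 CPM against 4.30, 7.42, 2.06 and 2.27, higher in 3 of 4 mice. The 8 pericyte genes summed to 14.7, 718, 85.7 and 97.0 CPM in members against 119, 135, 35.0 and 40.8, higher in 3 of 4 mice, and to 1475 CPM in the strongest members of EC-KO mouse 2, where 123 of the 124 UMIs were those of the deep cell. Of these genes 2 were tested and 0 called (edgeR and DESeq2, 1 at an unadjusted p under 0.05). The part of pericytes or adipocytes in the results was not tested. The leukocyte marker Ptprc was at 0 in the strongest members. Of the lymphatic markers 4 were in the files, with a summed level of 64.8 CPM in members and 57.9 CPM in other cells.

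The strongest members were themselves of unlike kinds. The sets below were formed after the values of these cells had been seen, so they are a description and carry no test. Lrg1 was present in 19 of the 30 cells, 2, 5, 6 and 6 of the 4 mice. In EC-KO mouse 2 some of these cells, the deep cell among them, held a single Lrg1 UMI. Another of them with 1 Lrg1 UMI had 112 Cytl1 UMIs and no UMI of Pde2a, Meox2, Nrp2 or Lbp. Their place in this set therefore rests on single molecules. All 19 had Vwf (median 30 UMIs) and Aqp1 (median 22), 18 had Plvap, 17 had Nr2f2 and 16 had Pde2a, and Rgcc and Car4 were absent from all 19. A further 5 cells, 4 of them from EC-KO mouse 1 and 1 from EC-WT mouse 1, had Gpihbp1 and no Lrg1. All 5 had Rgcc, 4 had Tcf15, 4 had Kdr and 2 had Car4, while Vwf and Plvap each came to 2 UMIs in the 5 cells together. They had a median of 40 Fabp4 and 13 Cd36 UMIs at a median depth of 3021 UMIs. Their mitochondrial shares were 6.59%, 2.77%, 21.8% and 20.1% in EC-KO mouse 1 and 20.3% in EC-WT mouse 1, so that 3 of the 5 lay nearer to the limit of 25% than the medians of the other cells (7.79%) and of the 30 strongest members (8.07%). The part of RNA quality in this set was not tested. The last 6 cells had neither Lrg1 nor Gpihbp1, came from 3 mice, and had no UMI of Pde2a, Meox2, Nrp2, Lbp or Kdr. Cytl1 was found in all 6, at 1 to 223 UMIs with a median of 50 and a pooled level of 5744 CPM, and in 17 of the 19 cells with Lrg1, with a median of 9.

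**Figure D4:**
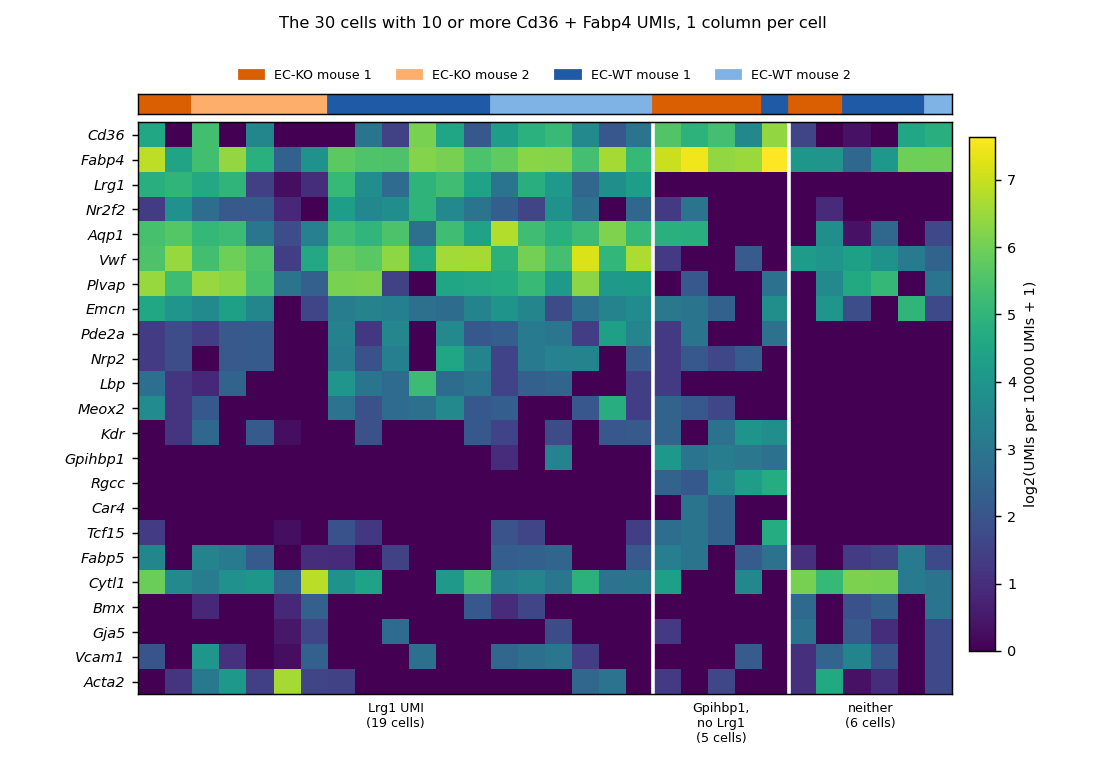
Levels of selected genes, scaled to the depth of each cell and on a log2 scale, in each of the 30 members with 10 or more Cd36 and Fabp4 UMIs, ordered by set and mouse. All 19 cells with Lrg1 have Vwf and Aqp1 and 17 have Nr2f2, all 5 with Gpihbp1 and no Lrg1 have Rgcc and share 2 Vwf UMIs, and Cytl1 is found in all 6 with neither and in 17 of the 19.

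A list of 12 genes chosen from these results (Lrg1, Nr2f2, Gpihbp1, Kdr, Pde2a, Meox2, Nrp2, Lbp, Robo4, Apold1, Tcf15 and Fabp5) was counted per cell, again as a description. Of the 30 strongest members 23 had at least 4 of them detected (6, 4, 7 and 6 of the 4 mice), with a median of 7 and up to 10. None of the 35 weaker members (at most 2) and none of the 367 other cells (at most 3) reached 4. These genes helped to define the difference, so the separation is not independent of it.

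The share of members was next compared between genotypes. Epas1 itself was not lower in the mice labelled EC-KO. It had 2766 and 2939 CPM in the members of the EC-KO mice against 2652 and 2375 in those of the EC-WT mice (log2 fold change 0.18 ± 0.27, edgeR adjusted p = 1.00). In the other cells the levels were 2985 and 3202 against 3550 and 2351 CPM. Only 3′ ends were read, so loss of an internal exon need not lower the count, and these values do not check the labels.

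Members made up 18 of 149 (12.1%, 95% exact interval 7.32% to 18.4%) and 15 of 98 (15.3%, 8.83% to 24.0%) Pecam1-positive cells in EC-KO mice. In EC-WT mice they made up 20 of 114 (17.5%, 11.1% to 25.8%) and 12 of 71 (16.9%, 9.05% to 27.7%). The means were 13.7% ± 2.28 and 17.2% ± 0.45 (SD, n = 2 mice each), without overlap (difference -3.53 percentage points). An exact permutation test over mice, 2-sided, gave p = 0.333, and 2 against 2 mice cannot give less. The strongest members made up 8 (5.37%), 5 (5.10%), 10 (8.77%) and 7 (9.86%) cells, a difference of -4.08 points with the same smallest exact p = 0.333. With cells thinned to 1000 UMIs before the rule, the shares of members were 4.26%, 2.13%, 7.96% and 10.3%. Those of the strongest members were then 2.13%, 0%, 1.77% and 4.41%, which overlapped between genotypes (-2.03 points, exact p = 0.667), and the 0 of 94 cells in EC-KO mouse 2 allows a share of up to 3.19% (3 counts). For members with sums of 5 or more the shares overlapped between genotypes (-0.99 points, exact p = 0.667), as they did with at least 4000 UMIs in every cell (-5.02 points, exact p = 0.667). The share of cells with sums of 2 to 9 was 6.71% and 10.2% in EC-KO against 8.77% and 7.04% in EC-WT mice. The intervals of single mice overlapped throughout, and with 2 mice in each genotype the test could not pass at any depth. Counts per plate also depend on the sort, and EC-KO mouse 2 and EC-WT mouse 1 shared a flow cell while the other 2 plates did not.

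**Figure D5:**
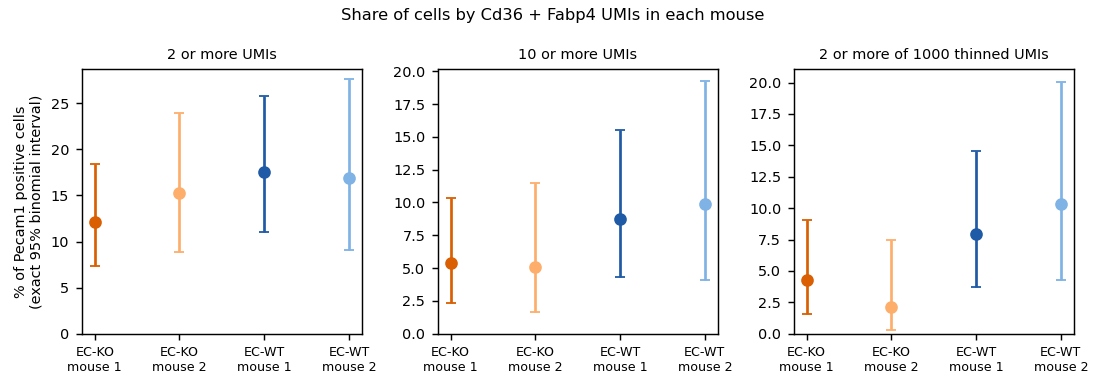
Share of Pecam1-positive cells (percent, with 95% exact binomial intervals) that were members, and that had 10 or more Cd36 and Fabp4 UMIs, for each mouse. The 2 EC-KO mice lie below the 2 EC-WT mice in both measures, by 3.53 and 4.08 percentage points between the means, and the intervals of all 4 mice overlap.

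Within members, 0 of 3123 genes differed between EC-KO and EC-WT (0%, edgeR), with 130 (4.16%) at an unadjusted p under 0.05 and 1 by DESeq2. Within the strongest members 0 of 1289 did (0%), with 52 (4.03%) at an unadjusted p under 0.05. In this design a gap between 2 and 2 mice is common, since the CPM of 32.3% of genes tested in members and 35.1% of those in the strongest did not overlap between genotypes. The 1 gene called by DESeq2 was Dcn, which encodes the matrix proteoglycan decorin and is a fibroblast marker. It had 368 and 520 CPM in the EC-KO mice against 91.9 and 24.2 in the EC-WT mice (log2 fold change 2.85 ± 0.48, edgeR adjusted p = 0.26; 2.90 and 0.023 with DESeq2). Over its alternatives the value ranged from 2.25 to 4.28. It passed in 9 of them, but in 4 of these a mouse was left out, so that a genotype had 1 mouse that is assumed to vary like the others. In the other cells Dcn had 986 and 69.7 CPM in EC-KO against 101 and 88.4 in EC-WT mice.

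Of the leading genes of the strongest members, Pde2a and Nr2f2 lay lower in both EC-KO mice with and without the deep cell of EC-KO mouse 2, each without a call, and Aqp1 overlapped between genotypes. Apold1 lay higher in both, with 303 and 297 CPM against 92.7 and 127 (1.62 ± 0.57, edgeR adjusted p = 0.99), and Flt1 (1.24) and Fabp5 (0.64) had positive values without a call. Pde2a had 114 and 83.3 CPM against 278 and 609 (-1.99 ± 0.64, edgeR adjusted p = 0.99). Nr2f2 had 303 and 190 CPM against 583 and 457 (-0.95 ± 0.48, adjusted p = 0.99). Vwf had 2579 and 1867 CPM against 3591 and 6239 (-0.998 ± 0.463, adjusted p = 0.99). Lrg1 had 815 and 690 CPM against 874 and 1141 (-0.27 ± 0.37, adjusted p = 1.00). In these values Pde2a, Nr2f2, Vwf, Lrg1 and Apold1 did not overlap between genotypes, a pattern that 35.1% of all genes tested showed. For Vwf and Lrg1 this rested on the deep cell, which holds 8 of the 157 Vwf UMIs and 1 of the 58 Lrg1 UMIs of its mouse. Without it, EC-KO mouse 2 had 4087 CPM of Vwf and 1563 CPM of Lrg1, so that both genes overlapped between genotypes, and the fitted values were -0.54 for Vwf and 0.26 for Lrg1 (edgeR adjusted p = 1.00 for both). Pde2a (192 CPM, -1.48), Nr2f2 (329 CPM, -0.68) and Apold1 (686 CPM, 2.18) still did not overlap without it, each again without a call (edgeR). Leaving this cell out was chosen after the data were seen. The set with Gpihbp1 and no Lrg1 supplied 4 of the 8 strongest members of EC-KO mouse 1 and its part in these values was not tested. Lipg, an endothelial lipase that acts on lipoproteins, had 1 UMI in the strongest members and was not tested.

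The genotype effect was also compared between members and other cells within each mouse. Of 5320 genes 0 had a higher and 2 a lower effect (0.0376%) in members at an adjusted p under 0.05 (edgeR), with 217 (4.08%) at an unadjusted p under 0.05. Nov, a secreted matrix-associated protein, had 14.7 and 79.1 CPM in members of EC-KO against 12.2 and 307 in EC-WT mice, and 162 and 156 against 4.12 and 11.3 in other cells (-5.89, edgeR adjusted p = 0.0083). Without EC-WT mouse 2 the difference was -3.26 (adjusted p = 1.00). Col3a1, a fibrillar collagen and fibroblast marker, had 265 and 136 against 190 and 477 CPM in members, and 712 and 414 against 121 and 224 in other cells (-2.42, edgeR adjusted p = 0.010). Without smooth muscle-rich cells the value turned to 0.27 and was not called. Within the strongest members 0 of 4789 genes passed in either direction (0%, edgeR), with 156 (3.26%) at an unadjusted p under 0.05.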

How the data were processed

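SORT-seq counts of 4 plates were analysed. The authors aligned reads with BWA 0.7.15 to GRCm38/mm10 and used Seurat, per the submitters' processing notes, and deposited for each plate UMI counts per gene and well and estimated transcript counts, which correct the UMI counts for tags used more than once. The whole-number counts were used for all tests. The deposited estimated counts, rounded to whole numbers, served as an alternative. Spike-in and mitochondrial rows were left out of all levels, and no row without a gene name was used. Expression was summed per mouse and class and tested with edgeR 4.0.16 (quasi-likelihood, TMM, filterByExpr, Benjamini-Hochberg over all genes tested, R 4.3.3), with mouse as a block where both classes of a mouse were compared. DESeq2 1.42.0 was an alternative. Shares and per-cell medians were compared by exact permutation tests over mice. CPM is a count for every 1000000 nuclear UMIs of the same cells.

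The study compared clusters by a rank test over cells. Cells of a mouse are not replicates, so sums per mouse were used here. The numbers of mice in both genotypes are labels without a stated pairing. Recovery was tried on counts simulated at the spread fitted to these same data. In each comparison 200 genes, all with a mean count of at least 20, were changed by 2 on the log2 scale. The comparison of members with other cells over 5320 genes recovered 196 of 200 with 11 others called. The genotype comparison over 3123 genes recovered 179 of 200 with 12, and the comparison of effects over 5320 genes 63 of 200 with 0. Recovery of genes with lower counts was not tried.

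Named were the rule's genes with Lrg1, Nr2f2 and Aqp1, the 12 largest called rises and 12 largest called falls with 1 direction in 4 of 4 mice, called genes of the lists with examples, and Epas1 and Lipg. Of these, the text gives the ones with values that bear on a list or a role. 1 item among them is not reported here. Genes named beyond this rule (Tcf15, Rgcc, Car4, Gpihbp1, Cd300lg, Aplnr, Dcn, Nov, Col3a1, Eln, Fn1, Ace, Slco2b1, Scarb1, Lipe, Lpl, Pparg, Ppard, Mgll, Mgp) were chosen after their values were seen. The members, lists and boundaries were chosen with earlier results of these data known. Depth per cell is given in the report, and intervals are exact Clopper-Pearson or Poisson-ratio intervals of 95% that cover counting error only. Alternatives were other depth and mitochondrial limits, other member sums, thinning to 1000 UMIs, low-count filters, the block, deep or smooth muscle-rich cells left out, and each mouse left out in turn.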

Additional observations from a re-analysis of the deposited data

Results flagged for a closer look

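Of 1095 wells that were not kept as cells, 10 had at least 2 Cd36 and Fabp4 UMIs and 2 had at least 10. The larger was a well of EC-WT mouse 2 with a sum of 85 (40 Cd36 and 45 Fabp4 UMIs) among 3638 UMIs, 3 Pecam1 UMIs and none of Lrg1, Nr2f2 or Vwf. It was left out because 25.7% of its UMIs were mitochondrial, just over the limit of 25%. The other, from EC-WT mouse 1, had a sum of 13 among 507 UMIs, below the limit of 1000. Both signals lie outside the report's comparisons and above the floor of 3 counts. Among the 9 cells without a Pecam1 UMI, 1 had a sum of 3.

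The genotype effect differed between members and other cells for Nov (-5.89 on the log2 scale) and Col3a1 (-2.42). For Nov, 36 of the 38 member UMIs of EC-WT mouse 2 lay in 1 member with a sum of 2 to 9. For Col3a1 the difference was 0.27 without smooth muscle-rich cells. The part of other cell types in these 2 values beyond that was not tested.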

How the results depend on the processing

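Members higher and lower than other cells numbered 28 and 9. The counts were 82 and 64 without a filter on low counts, 67 and 72 for sums of 10 or more, 63 and 50 for sums of 5 or more, 0 and 0 for sums of 2 to 9, 113 and 156 after thinning to 1000 UMIs, and 55 and 30 without cells over 3 times the median UMIs. They were 21 and 4 with no replicate block, where Aqp1 was not called (1.41), and 40 and 16 without smooth muscle-rich cells. Leaving out single mice gave 17 to 34 and 3 to 13, with the lowest counts, 17 and 3, without EC-WT mouse 1. In the strongest members, 67 and 72 became 114 and 220 without a filter, 112 and 110 without smooth muscle-rich cells and 77 and 63 with no replicate block. The lower count was 47 with DESeq2. Single mice left out gave 46 to 97 and 28 to 80, the lowest without EC-WT mouse 2. Genotype calls within members, 0 and 0, were 15 and 1 without a filter, 1 and 0 with DESeq2, 1 and 0 with a replicate block (Dcn, 2.88), 1 and 0 without cells over 3 times the median and 2 and 0 without smooth muscle-rich cells. Leaving out single mice gave 2 to 46 higher, the most without EC-KO mouse 1, and 1 to 6 lower. In each of these fits 1 genotype had a single mouse, assumed to vary like the others. Genes whose genotype effect was higher or lower in members numbered 0 and 2. They were 1 and 6 with at least 4000 UMIs in both classes, 1 and 0 for sums of 5 or more, 0 and 0 for sums of 10 or more, 0 and 9 for sums of 2 to 9, and lower 0 without cells over 3 times the median and without smooth muscle-rich cells. Single mice left out gave 0 to 6 and 0 to 16. Col3a1 turned to 0.27 without smooth muscle-rich cells, and so did the uncalled genotype value of Lrg1 in the strongest members, from -0.27 to 0.26. The cause of these shifts was not tested.

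The difference in median UMIs per cell was -628 after thinning. That in median genes per cell was -33 with at least 4000 UMIs, 443 for sums of 2 to 9, 63.8 for sums of 5 or more and -227 after thinning. That in the mitochondrial percentage was 1.55 for sums of 10 or more and 2.04 after thinning. On the log2 scale the capillary level differed by 1.01, and by 1.72 for sums of 10 or more, 0.21 for sums of 2 to 9 and 2.13 after thinning. The venous level differed by 0.16, by 0.43 for sums of 5 or more and by 0.59 after thinning, and the arterial level by -0.85 after thinning. The share of members was lower in EC-KO mice under each alternative with sums of 2 or more or 5 or more, with overlap of the genotypes in those with at least 4000 UMIs and with sums of 5 or more, and was higher in the mean of EC-KO mice for sums of 2 to 9 alone. For sums of 10 or more the genotypes overlapped after thinning. Deviations of same-numbered mice from their group means correlated at 0.04 in members and -0.11 in other cells. Members and other cells of the same mouse correlated only at 0.06 to 0.18. These values therefore cannot tell whether the numbers share a pairing. The replicate block moved no call of the genotype comparison other than that of Dcn. Genotype comparisons after thinning could not be fitted, since EC-KO mouse 2 kept 2 members. With 12 to 20 members per mouse, genes with few UMIs could not be tested.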
